A study of Mus musculus with 9 samples.

Results

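Among ventral midbrain cells that carried both the VGAT and the Pitx3 reporter, 125 cells had little Slc6a3, the gene for the plasma membrane dopamine transporter, and more transcripts of Itga11, Met, Slc26a7 and Prdm8 than of Sstr2, Ptprq, Grem1 and Crhbp. They are called Met/Itga11 cells here. They were selected on these measured values: a well was taken with at least 2000 genes, at most 50000 counts, less than 15% mitochondrial counts and at most 2 counts of Slc6a3, and the summed count of the first 4 genes had to exceed that of the other 4. Of 575 wells that passed the quality limits on the double reporter plates, 354 had at most 2 Slc6a3 counts. Of these, 125 were Met/Itga11 cells (74 at E16 and 51 at P0), 169 had the opposite order of the sums (Sstr2/Grem1 cells, 76 and 93), and 60 had equal sums and were left out (tied cells, 25 and 35). The remaining 221 wells, with more than 2 Slc6a3 counts, are called Slc6a3-high cells (129 and 92). Over all 9 plates, 2034 of 3455 wells passed the limits.

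All mice carried VGAT-Cre, the Cre-dependent tdTomato allele Ai14 and Pitx3-GFP, so every group compared here carries these alleles. TdTomato marks a cell that has expressed Cre from the VGAT gene (Slc32a1) at any time, so it does not show that the gene was active when the cell was sorted, whereas GFP follows the dopamine neuron factor Pitx3. Cells positive for tdTomato and GFP filled 1 plate at E16 and 1 at P0 (VGAT + PITX3 plates), and cells sorted on tdTomato filled 4 plates at E16 and 3 at P0 (VGAT plates). Brains of several litters were used and the labels do not tie a plate to an animal, so differences between plates may be technical, and with 1 VGAT + PITX3 plate per stage the plate and the stage cannot be told apart. Cells of a plate are not replicates. Levels are therefore given per plate, as CPM, counts scaled to the size of the library with trimmed-mean (TMM) factors, and tests were run on counts summed per class of cells and plate.

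Dopamine neurons make their transmitter from tyrosine with tyrosine hydroxylase (Th) and aromatic amino acid decarboxylase (Ddc), load it into vesicles with Slc18a2 and take it back up with Slc6a3. They arise from floor plate cells under Lmx1a, Foxa1 and Foxa2 and mature under Nr4a2 and Pitx3. Those of the substantia nigra pars compacta (SNc) are known for Sox6 and Aldh1a1, and those of the ventral tegmental area (VTA) for Otx2 and Calb1. Some VTA neurons also release glutamate, loaded by Slc17a6, or GABA, loaded by Slc32a1. Met is the receptor for hepatocyte growth factor, Itga11 a collagen-binding integrin subunit, Prdm8 a transcriptional repressor and Slc26a7 an anion exchanger.

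The genes of the rule lie apart in the genome. In build GRCm38, Itga11 is on chromosome 9 (62677826 to 62783982, plus strand), Met on chromosome 6 (17463800 to 17573980, plus), Slc26a7 on chromosome 4 (14502430 to 14621805, minus) and Prdm8 on chromosome 5 (98167198 to 98188991, plus). Sstr2 is on chromosome 11 (113619342 to 113626028, plus), Ptprq on chromosome 10 (107517049 to 107720051, minus), Grem1 on chromosome 2 (113746164 to 113758646, minus) and Crhbp on chromosome 13 (95431371 to 95444924, minus). All 8 are protein-coding, and counts covered exons and introns of the whole gene. Strand handling in the counting is not given in the sources used here, so Sstr2 reads and those of the overlapping opposite gene Slc39a11 cannot be told apart, likewise Nrn1 and Fars2, Pitx3 and Elovl3, Wdpcp and Mdh1, and Zfp804b and Tex47.

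Prdm8 was the gene most often present in Met/Itga11 cells, with at least 1 count in 104 of the 125 cells. Met was found in 74, Slc26a7 in 53 and Itga11 in 39. Only 5 cells held all 4 genes, while 39 held 3, 52 held 2 and 29 held a single one. The class is thus cut from a range of sparse counts. The sums differed by 1 count in 17 cells, by 2 to 4 in 46 and by at least 5 in 62, and 83 cells also had counts of the opposing list. Slc6a3 had 0 counts in 90 cells, 1 in 30 and 2 in 5.

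The levels that chose the cells are given as a description, with no test. Met was at 208 and 307 CPM in Met/Itga11 cells of the E16 and P0 plates, against 23.6 and 31.9 CPM in Sstr2/Grem1 cells, 6.46 and 21.7 CPM in Slc6a3-high cells and 1.67 to 8.75 CPM on the 7 VGAT plates. Itga11 was at 52.6 and 83.5 CPM in Met/Itga11 cells, 4.92 and 10.6 CPM in Sstr2/Grem1 cells and 3.23 and 6.86 CPM in Slc6a3-high cells, and at most 0.672 CPM on a VGAT plate. Slc26a7 was at 92 and 74.4 CPM in Met/Itga11 cells and at 21.7 and 9.31 CPM in Sstr2/Grem1 cells. Prdm8 was at 353 and 320.4 CPM against 46.3 and 42.5 CPM. For each of the 4 genes, both Met/Itga11 sums lay above every other sum of these plates, which the rule favours. Of the 2 further genes proposed as markers of these cells, Nrn1, a neurite growth factor, was at 104 and 69.9 CPM against 29.5 and 27.9 CPM in Sstr2/Grem1 and 69.2 and 50.3 CPM in Slc6a3-high cells. Slc17a6, the vesicular glutamate transporter, was at 219 and 341 CPM against 146 and 254 CPM in Sstr2/Grem1 and 12.5 and 46.8 CPM in Slc6a3-high cells. The level of Nrn1 was nearer to that of Slc6a3-high cells and the level of Slc17a6 nearer to that of Sstr2/Grem1 cells.

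To see each gene without its own part in the choice, the classes were chosen again without it, and levels were taken as plain CPM, without the TMM factors. Met was then 202 CPM in Met/Itga11 and 50 CPM in Sstr2/Grem1 cells at E16, and 232 and 89.5 CPM at P0. The ratio of the classes was 4.04 and 2.6 for Met, 2.8 and 3.75 for Prdm8, 2.61 and 2.99 for Itga11, and 3.06 and 1.94 for Slc26a7. On the other list it was 0.336 and 0.435 for Sstr2 and 0.354 and 0.61 for Grem1. For Crhbp it was 0.79 and 0.764, and for Ptprq 0.702 and 0.783. All 8 ratios lay on the same side of 1 on both plates. The 8 genes had been picked from these same cells, so genes that vary with them were favoured by that choice.

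**Figure D1:**
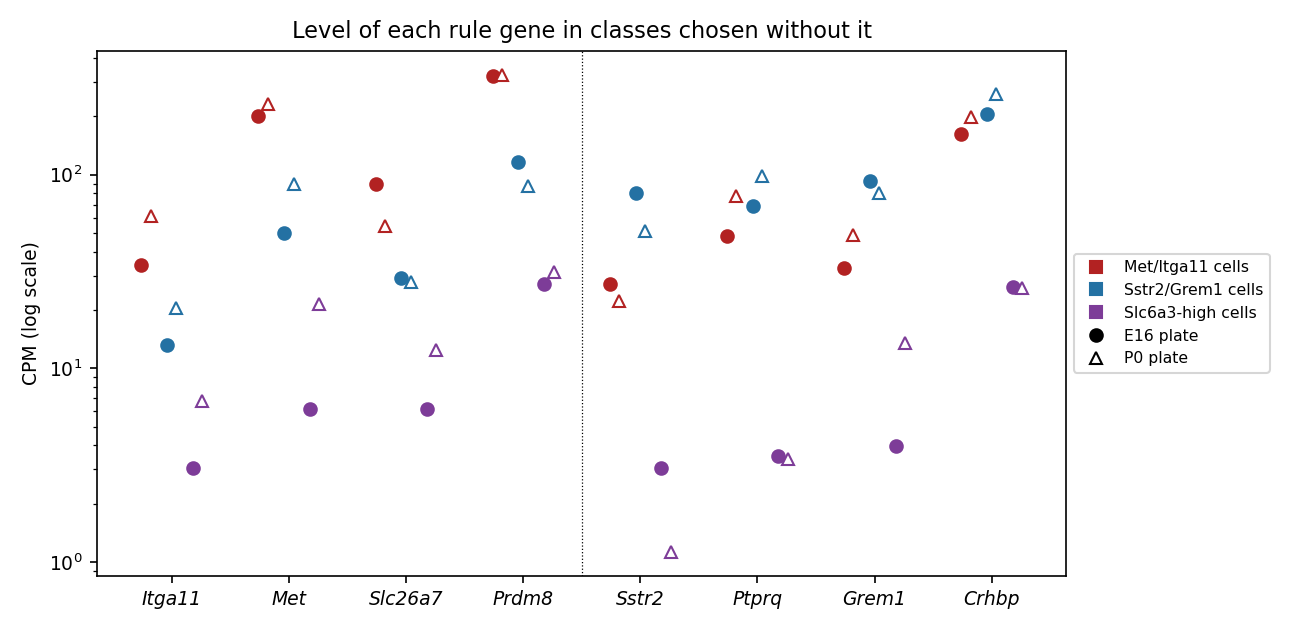
Level of each of the 8 rule genes (plain CPM, log axis) in Met/Itga11, Sstr2/Grem1 and Slc6a3-high cells chosen without that gene, on the E16 plate (filled circles) and the P0 plate (open triangles). Points are single plates with no error; Met stood at 202 and 232 in Met/Itga11 cells, and at 50 and 89.5 in Sstr2/Grem1 cells.

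Near the limits of the rule, in plain CPM over both plates, Gad2 was at 1604 in the 17 cells inside by 1 count, 1432 in the 60 tied cells and 1408 in 34 Sstr2/Grem1 cells outside by 1 count. Aldh1a1 was at 62, 398 and 255. The 32 tied cells with 0 counts of both lists had 633 for Aldh1a1. Across the Slc6a3 limit, the 5 Met/Itga11 cells with 2 Slc6a3 counts had 48.5 for Th, and 6 cells with 3 counts that met the other condition had 582.

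Met/Itga11 cells made up 42.3% of the Slc6a3-low cells at E16 (exact 95% binomial interval 34.9 to 50) and 28.5% at P0 (22 to 35.7). The intervals overlap narrowly, cover counting error only, and come from 1 plate each. The sort set how many double-labelled cells were collected, so these shares do not describe the tissue. Well barcodes are reused on every plate, and 7 well positions held a Met/Itga11 cell on both plates.

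The median count per cell was 13336 at E16 and 9435 at P0 in Met/Itga11 cells, 13679 and 7445 in Sstr2/Grem1 cells, and 17815 and 9298 in Slc6a3-high cells. Summed over cells, the class held 1000041 counts at E16 and 437656 at P0, so that 3 counts, the floor used here, correspond to 3 and 6.85 CPM and lower levels are not resolved. The VGAT plates held between 1435918 and 5408709 counts. For 6 plates the deposited columns name the stage or the sort in a pair of ways that disagree, and the first was taken. On 4 VGAT plates it is the stage that disagrees, and which name is right was not tested, so the VGAT stage means and the stage term rest on the first name. Pitx3 had 652 and 174 counts on the 2 VGAT + PITX3 plates and between 0 and 2 on each VGAT plate, as the first name of the sort has it. On the VGAT plates 121 of 1459 wells (8.29%) met the same limits and order of sums, and 1 of them had a Pitx3 count.

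Genes of other cell types were looked at in the sums. The 3 serotonin genes Tph2, Fev and Slc6a4 had 0 counts in Met/Itga11 cells, as did 5 of 6 microglia genes, and the summed levels of the erythroid and cycling genes were at most 4.51 CPM. Those of the 7 endothelial and mural genes were 11.1 and 4.51 CPM. The 5 oligodendrocyte lineage genes, of which Pdgfra and Sox10 had 0 counts, summed to 35.4 and 29.3 CPM in Met/Itga11 cells, 62 and 30.6 CPM in Sstr2/Grem1 cells, 4.15 and 36.6 CPM in Slc6a3-high cells and at most 50 CPM on a VGAT plate. Olig2 was called higher than in Slc6a3-high cells by edgeR (2.96 ± 0.86 as log2 fold change ± SE, adjusted p = 0.0319) and not by DESeq2, which called 0 of the list, and 14 of its 21 counts in Met/Itga11 cells came from 1 well. The 9 radial glia and astrocyte genes were higher in sum in Met/Itga11 cells (628 and 359 CPM) than in Sstr2/Grem1 cells (259.9 and 145 CPM), against 230.2 and 370.2 CPM in Slc6a3-high cells and 186 to 782 CPM on the VGAT plates. Of these genes' counts in Met/Itga11 cells, 3 wells held 392 of 416 Fabp7 and 40 of 51 Slc1a3 counts and also 33 Foxa1 and 44 Gad2 counts. In plain CPM the sum was 621 and 364 with these wells and 127 and 195 without wells holding at least 30 counts of Fabp7 or Nrgn. One well with 41683 counts held 153 of 184 Nrgn counts. Whether these wells held more than 1 cell was not tested, and no doublet caller was run.

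These cells had been proposed as VTA-like, and the marker lists gave a mixed picture. Against Slc6a3-high cells, 6 of 7 tested SNc markers were lower in Met/Itga11 cells and 1, Igf1, was higher, where 4.58% of all genes tested were higher and 4.58% lower, with a median log2 fold change over the 7 of -1.47. DESeq2 called 5 of the 7. Slc6a3 counts set these classes apart, so markers that vary with Slc6a3 were favoured by that choice. Low SNc markers were shared with Sstr2/Grem1 cells: the summed level of the list was 652 and 618 CPM in Met/Itga11, 416 and 589 CPM in Sstr2/Grem1 and 5937 and 5105 CPM in Slc6a3-high cells, and against Sstr2/Grem1 cells 1 of the 7, Lmo3, was higher and 0 lower. In that comparison 0.933% of all genes tested were higher and 0.886% lower. Igf1, a growth factor, was at 115 and 40.6 CPM against 37.8 and 40 CPM. Aldh1a1 was at 85.9 and 199 CPM against 4324 and 4063 CPM, and Sox6 at 17.2 and 4.51 against 386 and 189.7 CPM. Of 6 tested VTA markers, however, Adcyap1 was higher (2.69 ± 0.41, log2 fold change ± SE) and Calb1 (-1.67 ± 0.28) and Calb2 (-1.03 ± 0.29) were lower, and DESeq2 called 2 of the 6. The median log2 fold change over the 6 was 0.33, and the summed level of the 11 listed VTA markers was 377 and 657 CPM in Met/Itga11, 323 and 577 CPM in Sstr2/Grem1 and 167 and 536 CPM in Slc6a3-high cells. This sum includes Slc17a6, which had been proposed as a marker of these cells and was left out of the tests. Slc17a6 made up most of the sum in Met/Itga11 cells and a small part of it in Slc6a3-high cells, so these sums are no independent result. Otx2 was at 39.4 and 24.8 CPM, against 22.6 and 12.6 CPM in Slc6a3-high cells (edgeR adjusted p = 0.145) and 64.5 to 118 CPM on the VGAT plates, where it was higher than in Met/Itga11 cells (-1.55 ± 0.23, adjusted p = 3.87e-04). Lpl had 1 count, Vip 2, and all 6 Neurod6 counts came from 1 well. The cells are therefore called by their leading genes and not by a region.

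Th and Ddc were higher in Met/Itga11 cells than on the VGAT plates and lower than in Slc6a3-high cells. Th was at 87.9 and 133 CPM at E16 and P0, against 1067 and 986 CPM in Slc6a3-high cells, 42.3 and 95.7 CPM in Sstr2/Grem1 cells and 0.194 to 6.25 CPM on the VGAT plates. It was lower than in Slc6a3-high cells by edgeR's quasi-likelihood test with Benjamini-Hochberg adjustment (-3.28 ± 0.21, adjusted p = 2.75e-10) and higher than on the VGAT plates (5.40 ± 0.55, adjusted p = 9.48e-06). Ddc was at 395 and 253 CPM against 1341 and 824 CPM in Slc6a3-high cells (-1.73 ± 0.14) and 15 to 46.2 CPM on the VGAT plates (3.49 ± 0.22). Slc18a2 was at 266 and 316 CPM, against the 286 and 415 CPM of Slc6a3-high cells (-0.23 ± 0.15, adjusted p = 0.441) and above the 86.6 and 158 CPM of Sstr2/Grem1 cells (1.31 ± 0.17, adjusted p = 7.77e-05). Of 10 tested genes of dopamine synthesis and handling, 6 were lower than in Slc6a3-high cells (Th, Ddc, Gch1, Slc10a4, Drd2 and Maoa) and 0 higher, where 4.58% of all 10499 genes tested were higher and 4.58% lower. The list had a median of -1.50, against -0.05 for all genes, and DESeq2 called 5 of the 10. Slc6a3, itself a gene of dopamine handling, set these classes apart, so other dopamine genes were favoured by that choice. The calls of this list against Slc6a3-high cells are therefore no independent result. Against the VGAT plates 5 of 12 tested genes were higher (Th, Ddc, Gch1, Slc18a2 and Slc10a4) and Drd2 was lower, where 3.50% of all genes tested were higher and 4.09% lower. DESeq2 called 5 of the 12. The sort on the reporter of Pitx3, a dopamine neuron factor, favoured dopamine genes in this comparison. Drd2, the dopamine autoreceptor, had 2 counts in Met/Itga11 cells and 288 in Slc6a3-high cells, a ratio of 65.3 with a counting interval of 17.9 to 542. It was at 1.01 and 2.26 CPM, below all VGAT plates (8.91 to 12.8 CPM).

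**Figure D2:**
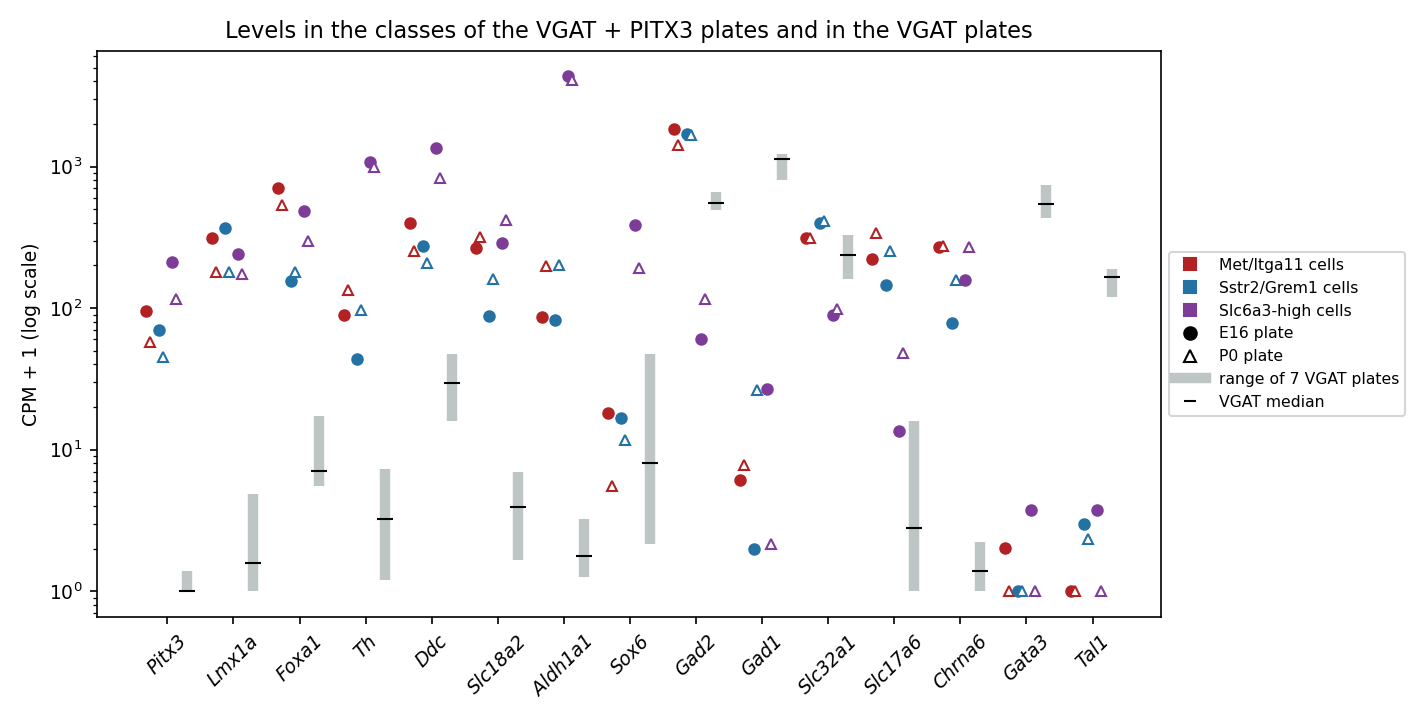
Levels (CPM + 1, log axis) of 15 lineage and transmitter genes in Met/Itga11, Sstr2/Grem1 and Slc6a3-high cells of the E16 (filled circles) and P0 (open triangles) VGAT + PITX3 plates, with the range (grey bar) and median (black dash) of 7 VGAT plates. Gad2 and Slc17a6 of Met/Itga11 cells lay above the VGAT range, and Gad1, Gata3 and Tal1 lay far below it.

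The GABA genes were split. Gad2, a GABA-synthesising enzyme, was at 1846 and 1410.0 CPM in Met/Itga11 cells and 1702 and 1669 CPM in Sstr2/Grem1 cells, against 59.1 and 114 CPM in Slc6a3-high cells and 493 to 662 CPM on the VGAT plates. It was higher than in Slc6a3-high cells (4.34 ± 0.22, adjusted p = 1.67e-11) and than on the VGAT plates (1.53 ± 0.11, adjusted p = 2.68e-07). Gad1, which encodes the other GABA-synthesising enzyme, had 8 counts in 5 Met/Itga11 cells and stood at 5.05 and 6.77 CPM, against 796 to 1233 CPM on the VGAT plates (-7.58 ± 0.32, adjusted p = 7.25e-10). It was at 0.984 and 25.3 CPM in Sstr2/Grem1 and 25.8 and 1.14 CPM in Slc6a3-high cells, so all 3 classes of the double-labelled plates had little of it. Both genes are on chromosome 2, Gad2 at 22622205 to 22693874 and Gad1 at 70553072 to 70602014 (plus strand, GRCm38). Slc32a1, the gene that drives the tdTomato label, was at 311 and 314 CPM, against 89 and 98.3 CPM in Slc6a3-high cells (1.75 ± 0.15, adjusted p = 4.06e-08) and 161 to 326 CPM on the VGAT plates. Of 7 tested GABA genes, 0 were lower than in Slc6a3-high cells, and against Sstr2/Grem1 cells edgeR called 0 and DESeq2 0, with 1 at an unadjusted p under 0.05.

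In single cells the GABA and glutamate genes were found together. To compare cells of unequal depth, 4000 counts were drawn at random from each cell, which left out 9 Met/Itga11 cells, 6 Sstr2/Grem1 cells and 2 Slc6a3-high cells. Gad2 was then found in 95.8% (88.3 to 99.1, 69 of 72 cells) of Met/Itga11 cells at E16 and 88.6% (75.4 to 96.2, 39 of 44 cells) at P0. In Slc6a3-high cells it was found in 17.8% (11.7 to 25.5, 23 of 129 cells) and 17.8% (10.5 to 27.3, 16 of 90 cells). Slc17a6 was found in 54.2% (42 to 66, 39 of 72 cells) and 70.5% (54.8 to 83.2, 31 of 44 cells), and in at most 3.07% of cells of a VGAT plate. Without thinning, the shares of Met/Itga11 cells were 100% and 96.1% for Gad2 and 86.5% and 84.3% for Slc17a6. Intervals are exact 95% binomial intervals and cover counting error only.

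After thinning, Gad2 and Slc17a6 occurred together in 52.8% (40.7 to 64.7, 38 of 72 cells) of Met/Itga11 cells at E16 and in 61.4% (45.5 to 75.6, 27 of 44 cells) at P0. The same pair was found in 2.33% and 4.44% of Slc6a3-high cells, which had less of both genes, and in 36.8% and 60.9% of Sstr2/Grem1 cells. As Gad2 was in most Met/Itga11 cells, the share of the pair was close to that of Slc17a6 alone. Whether the pair occurs more often than the single shares would give was not tested. Adding Slc18a2 to the pair left 31.9% (21.4 to 44, 23 of 72 cells) and 36.4% (22.4 to 52.2, 16 of 44 cells) of Met/Itga11 cells. The values in Sstr2/Grem1 cells were 5.26% (1.45 to 12.9, 4 of 76 cells) and 24.1% (15.6 to 34.5, 21 of 87 cells), so the intervals of the classes were apart at E16 and overlapped at P0. Th, Ddc and Slc18a2 occurred together in 8.33% (3.12 to 17.3, 6 of 72 cells) and 9.09% (2.53 to 21.7, 4 of 44 cells) of Met/Itga11 cells and in 49.6% and 53.3% of Slc6a3-high cells. Without thinning, the pair Gad2 and Slc17a6 was found in 86.5% and 80.4% of Met/Itga11 cells and in 10.1% and 9.78% of Slc6a3-high cells. With 1 plate per stage these shares were not tested.

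**Figure D3:**
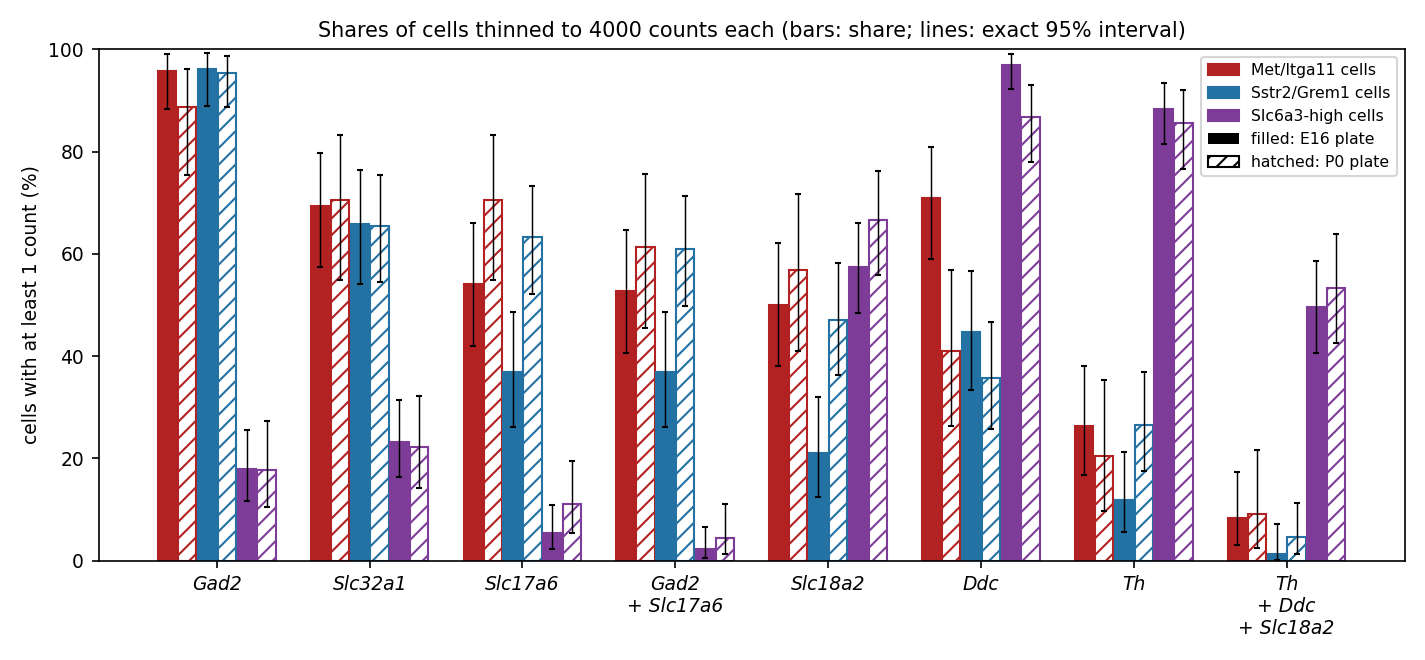
Share of cells (%) with at least 1 count of a gene or of every gene of a combination after thinning each cell to 4000 counts, by class and plate, with exact 95% binomial intervals that cover counting error only. Gad2 with Slc17a6 was found in 52.8% and 61.4% of Met/Itga11 cells, while Th with Ddc and Slc18a2 was most frequent in Slc6a3-high cells.

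The dopamine lineage factors were at like summed levels in all 3 classes of the double-labelled plates: 14063 and 11294 CPM in Met/Itga11, 13134 and 10748 CPM in Sstr2/Grem1 and 13475 and 11013 CPM in Slc6a3-high cells, against 2856 to 4819 CPM on the VGAT plates. Of 20 tested in Met/Itga11 cells against the VGAT plates, 13 were higher, Pitx3 among them, and 5 lower, where 3.50% of all 14245 genes tested were higher and 4.09% lower, and the median was 1.95 against -0.08 for all genes. DESeq2 called 18 of the 20. The sort on the Pitx3 reporter favoured genes of this lineage, so the number of calls and the median are no independent result. Lmx1a was at 311 and 178 CPM against 0 to 3.89 CPM (7.74 ± 0.39), with 366 and 179 CPM in Sstr2/Grem1 and 239 and 174 CPM in Slc6a3-high cells. Nr4a2 was at 848 and 465 against 28.1 to 89.8 CPM (3.65 ± 0.28) and En1 at 536 and 489.6 against 28.3 to 77.1 CPM (3.22 ± 0.24). Pitx3, whose GFP reporter was used in the sort and which is therefore no independent result, was at 95 and 56.4 CPM, against 210.4 and 114 CPM in Slc6a3-high cells (-1.10 ± 0.19, adjusted p = 2.45e-04).

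Foxa1, a pioneer factor of the floor plate, had a higher summed level in Met/Itga11 cells than in both other classes. It was at 699.5 and 532 CPM, against 155 and 178 CPM in Sstr2/Grem1 cells (1.88 ± 0.18, adjusted p = 2.64e-06) and 483 and 296 CPM in Slc6a3-high cells (0.67 ± 0.16, adjusted p = 0.0089). With cells thinned to 8000 counts it was found in 88.3% and 74.1% of Met/Itga11 cells, 47.4% and 44.1% of Sstr2/Grem1 cells and 88.7% and 80.8% of Slc6a3-high cells, so its share of cells did not set Met/Itga11 cells above Slc6a3-high cells. Its paralogue Foxa2 was at 156 and 119.6, 175 and 129 and 99.2 and 91.4 CPM and passed neither test. Bcl11a, a zinc-finger repressor, lay between the classes at 186 and 99.3 CPM, lower than the 457 and 331 CPM of Sstr2/Grem1 cells (-1.44 ± 0.17) and higher than the 72 and 68.6 CPM of Slc6a3-high cells (1.08 ± 0.19). Zfhx4 was lower than in either class, at 97 and 83.5 CPM against 252 and 195 and 172 and 137 CPM. Against Slc6a3-high cells, 7 of 19 tested factors were higher and 6 lower, where 4.58% of all genes tested were higher and 4.58% lower, and DESeq2 called 6 of the 19. The 3 Ebf factors, which take part in neuronal migration and differentiation, were all among the higher ones: Ebf2 was at 743 and 532 against 73.8 and 61.7 CPM (3.24 ± 0.16), Ebf3 differed by 1.90 ± 0.13 and Ebf1 by 1.31 ± 0.23. None of the 3 was called against Sstr2/Grem1 cells. Zfhx3 was at 181 and 85.7 against 1390.0 and 803 CPM (-3.03 ± 0.16).

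The comparison with Sstr2/Grem1 cells asked what else differs between the cells on either side of the rule. Of 10499 genes tested without the rule genes, Slc6a3, Nrn1 and Slc17a6, 98 were higher in Met/Itga11 cells (0.933%) and 93 lower (0.886%), with adjusted p under 0.05 by edgeR's quasi-likelihood test on the plate sums. These counts are no independent evidence of a split, for the reason given above on how the 8 genes were picked. The fit had 2 residual degrees of freedom and shared its spread with the Slc6a3-high sums. On simulated counts of this comparison, run on 10381 genes, 18% of 2-fold and 89% of 4-fold changes were called, so changes near 2-fold were often missed there. The simulation used the same fixed spread for every gene and equal levels in all classes and plates apart from the planted changes. Changes were planted only in genes above a set level, so these rates need not hold for the real counts. DESeq2 called 74 genes in place of 191.

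Among the 10 genes furthest above Sstr2/Grem1 cells, Etl4 was at 69.7 and 162 CPM in Met/Itga11 cells at E16 and P0, against 8.86 and 35.9 CPM in Sstr2/Grem1 cells (2.49 ± 0.29, adjusted p = 2.07e-05). Megf11, a cell-surface protein of neuronal mosaics in the retina, was at 241 and 327 against 65 and 46.5 CPM (2.28 ± 0.21, adjusted p = 2.64e-06). Wdpcp, a ciliogenesis gene, was at 139 and 266 against 35.4 and 38.6 CPM (2.37 ± 0.23, adjusted p = 2.71e-06). In all 3, each Met/Itga11 sum lay above both Sstr2/Grem1 sums, and no single well held over 10% of the Met/Itga11 counts. In Sstr2/Grem1 cells 1 well held 16.7% of the Etl4 and 1 well 10.9% of the Megf11 counts. Zfp804b (2.53 ± 0.35), Fstl5 (2.40 ± 0.42), the mineralocorticoid receptor Nr3c2 (2.23 ± 0.36), the kinase Prkd3 (2.33 ± 0.53) and Glipr2 (2.20 ± 0.51) were also higher, on both plates. With DESeq2, Fstl5 had an adjusted p of 0.212. With at least 2 counts between the sums that set the classes apart, the adjusted p was 0.0783 for Prkd3 and 0.0917 for Glipr2. Glipr2 had 0.268 with 0 Slc6a3 counts as the limit and 0.0586 with the tied wells as a class of their own, and Nr3c2 0.171 with cells thinned to 4000 counts.

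Slc1a3, the glial glutamate transporter, and Nrgn, a calmodulin-binding protein of neurons, were called as well but rested on few wells. Slc1a3 was at 36.4 and 33.8 CPM against 6.89 and 1.33 CPM (2.98 ± 0.57, adjusted p = 0.00455), with 49.0% of its 51 counts in 1 well. Without the wells with at least 30 counts of Fabp7 or Nrgn, a setting chosen after seeing the data, it was 2.16 ± 0.89 with an adjusted p of 0.387. Nrgn was at 161 and 56.4 against 11.8 and 41.2 CPM (2.31 ± 0.51, adjusted p = 0.0148). Without those wells its difference was -0.064 ± 0.41, with an adjusted p of 0.986. The number of genes called stayed near the first, at 194 in place of 191, of which 179 were shared.

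**Figure D4:**
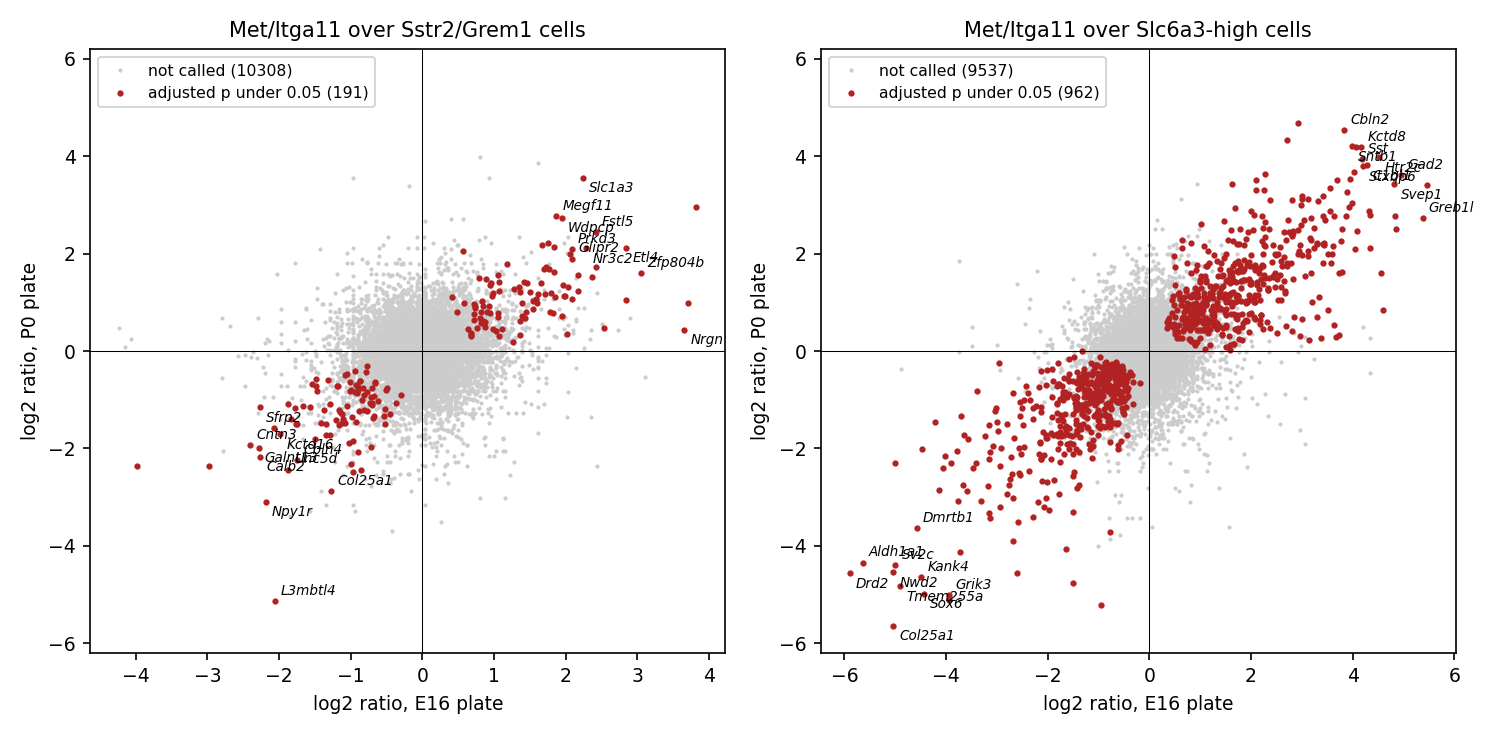
Log2 ratio of the level in Met/Itga11 cells to that in Sstr2/Grem1 cells (left) and in Slc6a3-high cells (right), on the E16 plate (x axis) and the P0 plate (y axis), for 10499 tested genes. Red points are genes with adjusted p under 0.05 (191 left, 962 right), grey points the others, and labelled points are the genes named in the text.

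Among the 10 genes furthest below Sstr2/Grem1 cells, Calb2, the calcium-binding protein calretinin, was at 13.1 and 40.6 CPM in Met/Itga11 cells and 66.9 and 189 CPM in Sstr2/Grem1 cells (-2.26 ± 0.27, adjusted p = 2.54e-05). Cntn3, an adhesion molecule of the contactin family, was at 55.6 and 51.9 against 297 and 202 CPM (-2.25 ± 0.20, adjusted p = 2.64e-06). Galnt13, an enzyme of O-glycosylation, was at 27.3 and 40.6 against 137 and 166 CPM (-2.19 ± 0.23). Npy1r, a neuropeptide Y receptor, was at 11.1 and 2.26 against 54.1 and 31.9 CPM (-2.63 ± 0.49) and was found in 7 of 125 against 33 of 169 cells. Unc5d, a netrin receptor, was at 159 and 69.9 against 586 and 386 CPM (-2.00 ± 0.26). L3mbtl4 (-2.59 ± 0.43), the Wnt inhibitor Sfrp2 (-1.97 ± 0.38), the synapse organiser Cbln4 (-1.89 ± 0.34), Kctd16 (-1.87 ± 0.26) and the membrane collagen Col25a1 (-1.82 ± 0.37) completed the 10 largest decreases, each lower on both plates. With DESeq2 the adjusted p was 0.740 for L3mbtl4, 0.158 for Unc5d and 0.133 for Sfrp2. With at least 2 counts between the sums it was 0.175 for Cbln4 and 0.0777 for Col25a1, and with thinned cells it was 0.0822 for Cbln4, 0.418 for Col25a1 and 0.0526 for L3mbtl4. With spliced counts it was 0.395 for Col25a1. Without the plate as a block the test called 0 genes, with 452 at an unadjusted p under 0.05.

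Against Slc6a3-high cells, 481 genes were higher (4.58%) and 481 lower (4.58%) of the same 10499, on the same plates and in the same fit. The comparison shares the Met/Itga11 sums with the one above. Slc6a3 counts set these classes apart, so genes that vary with Slc6a3 were favoured by that choice, and the number of calls is no independent evidence of a split. Among the 10 genes furthest above, Htr2c, a serotonin receptor, was at 141 and 293 CPM against 5.54 and 17.1 CPM (4.39 ± 0.40, adjusted p = 5.98e-08), and Cbln2, a synapse organiser, at 41.4 and 139.9 against 2.31 and 4.57 CPM (4.52 ± 0.40). Greb1l was at 275 and 228 against 6 and 33.1 CPM (4.11 ± 0.33), Sntb1 at 104 and 153 against 6 and 6.86 CPM (4.30 ± 0.38) and Stxbp6 at 113 and 147 against 5.54 and 9.14 CPM (4.21 ± 0.31). Each of these 5 genes was above both Slc6a3-high sums on both plates. Kctd8 (4.82 ± 0.63) and the secreted C1q family member C1ql1 (4.68 ± 0.62) had 4 counts each in Slc6a3-high cells. Svep1 had 42 counts in Met/Itga11 cells and 2 in Slc6a3-high cells, a ratio of 46.3 with a counting interval of 12 to 395. Sst, the peptide somatostatin, was at 52.6 and 162 against 2.31 and 9.14 CPM (4.26 ± 0.34), but was found in 17 cells with 38.7% of its counts in 1 of them.

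Among the 10 genes furthest below Slc6a3-high cells were the SNc markers Aldh1a1 and Sox6. Aldh1a1, a retinoic acid synthesising enzyme, was at 85.9 and 199 CPM against 4324 and 4063 CPM (-5.04 ± 0.25, adjusted p = 1.67e-11). Col25a1 was at 18.2 and 4.51 against 623 and 299 CPM (-5.18 ± 0.27), Tmem255a at 13.1 and 9.02 against 409.7 and 299 CPM (-4.96 ± 0.25) and Nwd2 at 21.2 and 22.6 against 716 and 561 CPM (-4.89 ± 0.25). Sv2c, a synaptic vesicle protein, was at 4.04 and 9.02 against 149 and 222 CPM (-4.91 ± 0.31), and Grik3, a kainate receptor subunit, at 10.1 and 4.51 against 165 and 193 CPM (-4.36 ± 0.31). Sox6 differed by -4.61 ± 0.25. None of these 7 had overlapping levels between the classes. Kank4 had 1 count against 111, a ratio of 50.4 (8.86 to 2007), and Dmrtb1 3 against 176, a ratio of 26.6 (8.96 to 130.3). Bdnf, a neurotrophin, was also lower, at 16.2 and 6.77 against 258 and 287 CPM (-4.34 ± 0.27), as were Ntf3 (-3.60 ± 0.39) and the GDNF family receptors Gfra1 (-2.26 ± 0.20) and Gfra2 (-1.90 ± 0.38), while Ret, their signalling partner, was at 210.3 and 356 against 259.7 and 395 CPM (adjusted p = 0.4). DESeq2 called 421 genes in place of 962, and 62.2% of them were higher in place of 50.0%.

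The comparison with the VGAT plates had 7 plates on the other side and 6 residual degrees of freedom. Of 14245 genes tested, 499 were higher in Met/Itga11 cells and 582 lower. The sort on the Pitx3 reporter set these groups apart, so genes that vary with Pitx3 were favoured by it. Without the stage as a term 822 genes were called, of which 818 were shared. Chrna6 and Chrnb3, subunits of the nicotinic receptors that drive dopamine release, stood furthest above the VGAT plates. Chrna6 was at 269.9 and 275 CPM at E16 and P0, against 0 to 1.21 CPM (9.00 ± 0.27, adjusted p = 5.17e-11), and Chrnb3 at 155 and 230.1 against 0 to 1.67 CPM (9.12 ± 0.31, adjusted p = 1.02e-10). The 2 genes are neighbours on chromosome 8 (GRCm38), Chrnb3 at 27368711 to 27399730 on the plus and Chrna6 at 27403212 to 27413944 on the minus strand, 3482 bp apart. Both were higher than in Sstr2/Grem1 cells too (Chrna6 1.33 ± 0.20, Chrnb3 0.73 ± 0.18). Of 6 tested nicotinic subunits these 2 were higher and 0 lower there, and DESeq2 called 1 of the 6. Over all genes tested against Sstr2/Grem1 cells, 0.933% were higher and 0.886% lower. Against Slc6a3-high cells, Chrna6 did not pass the test (0.45 ± 0.18, adjusted p = 0.14) and Chrnb3 was lower (-0.91 ± 0.16).

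Of the other genes furthest above the VGAT plates, Lmx1b was at 388 and 287 against 0 to 7.22 CPM (7.56 ± 0.43), Wnt7b at 251 and 178 against 0 to 4.45 CPM (7.90 ± 0.42) and the heat and capsaicin channel Trpv1 at 44.5 and 40.6 against 0 to 2.22 CPM (6.15 ± 0.59). Foxa1 (6.30 ± 0.26), Slc18a2 (6.37 ± 0.26) and Aldh1a1 (6.87 ± 0.31) followed, and the levels of these 6 genes did not overlap between the groups of plates. A level above the VGAT plates does not set Met/Itga11 cells apart from the other double-labelled cells. Lmx1b was called neither against Sstr2/Grem1 nor against Slc6a3-high cells, and the levels of Wnt7b and Trpv1 in those classes are not given here.

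Factors of midbrain GABA neurons were nearly absent from all 3 classes of the double-labelled plates, with sums of 7.08 and 2.26 CPM in Met/Itga11, 3.94 and 30.6 CPM in Sstr2/Grem1 and 16.1 and 0 CPM in Slc6a3-high cells, against 1176 to 1862 CPM on the VGAT plates. All 6 on the list (Gata2, Gata3, Tal1, Sox14, Pax5 and Six3) were lower in Met/Itga11 cells than on the VGAT plates, where 4.09% of all genes tested were lower, with a median log2 fold change of -6.12 when genes without counts are set to their bound. Tal1 had 0 counts in Met/Itga11 cells and 119.6 to 188 CPM on the VGAT plates, at least 77.4-fold lower than in the pooled VGAT plates when 3 counts over both sums are taken as the floor. On the same terms Gata2 (70 to 148 CPM on the VGAT plates) was at least 45.6-fold, Sox14 (51.7 to 105 CPM) at least 35.9-fold and Irx2 (39 to 59.8 CPM) at least 24-fold lower. Gata3 had 1 count against 431 to 743 CPM, a ratio of 840.2 (151 to 33187), and Lhx1 1 count against 65.6 to 161 CPM, a ratio of 181 (32.4 to 7134). Six3 was at 3.03 and 2.26 against 299 to 609 CPM (-7.20 ± 0.50). Sp9 and Igf2bp2 also had 0 counts, but varied among the VGAT plates, from 7.39 to 64.4 and from 8.21 to 37.5 CPM. The calls of these last 2 were lost without the E16 plate of double-labelled cells, with adjusted p-values of 0.48 and 0.205 (Sp9 also without the stage as a term, 0.0987), and the number of genes called then fell from 1081 to 405. Without the P0 plate it was 679.

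The pathways of the leading genes gave no call against Sstr2/Grem1 cells. Of 9 tested genes of the HGF-MET pathway other than Met, edgeR called 0 and DESeq2 0, with 1 at an unadjusted p under 0.05 in edgeR, and the ligand gene Hgf had 0 counts. Grb2, an adaptor of the receptor, was at 187 and 162 CPM in Met/Itga11 and 169 and 183 CPM in Sstr2/Grem1 cells. Of 5 tested integrin subunits other than Itga11, edgeR called 0 and DESeq2 0, with 0 at an unadjusted p under 0.05. Itgb1, the partner subunit of Itga11, was at 84.9 and 49.6 against 61 and 45.2 CPM, with an adjusted p of 0.737. Of 7 tested genes of the Prdm family and of partners and targets of Prdm8, edgeR called 0 and DESeq2 0, with 1 at an unadjusted p under 0.05, among them Cdh11, at 208 and 279.7 against 129 and 170.2 CPM (adjusted p = 0.051). Over all 10499 genes, 984 had an unadjusted p under 0.05.

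Axon guidance genes differed in both directions. Of 40 tested against Sstr2/Grem1 cells, 4 were higher and 4 lower, where 0.933% of all genes tested were higher and 0.886% lower, and DESeq2 called 0 of the 40. The ligand Slit2 was at 410.4 and 388 against 249 and 249 CPM (0.70 ± 0.18, adjusted p = 0.0479), while the receptor Robo1 was at 357 and 467 against 653 and 714 CPM (-0.75 ± 0.14, adjusted p = 0.00409) and Slit3 differed by -1.74 ± 0.42. The Eph receptors went both ways: Epha6 (0.72 ± 0.15) and Epha5 (0.52 ± 0.13) were higher and Ephb1 (-0.83 ± 0.20) was lower. Sema5a was higher (1.06 ± 0.21). Ntn1, the netrin ligand, was at 410.4 and 372 CPM, against 4.84 to 29.4 CPM on the VGAT plates (5.09 ± 0.35, adjusted p = 1.61e-07), and its receptor Dcc at 1276 and 1205 CPM, lower than the 2232 and 2584 CPM of Slc6a3-high cells (-0.96 ± 0.13). Ntn1 was called neither against Sstr2/Grem1 nor against Slc6a3-high cells, so it did not set Met/Itga11 cells apart from the other double-labelled cells. Epha6 was also above the VGAT plates, at 1828 and 2006 against 189 to 397 CPM (2.78 ± 0.17).

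Among 22 tested cadherins and protocadherins, Cdh6 (1.60 ± 0.18) and Cdh8 (1.18 ± 0.23) were higher than in Sstr2/Grem1 cells and Cdh4 (-0.81 ± 0.16), Cdh12 (-1.50 ± 0.26) and Pcdh15 (-0.77 ± 0.14) lower, and DESeq2 called 3 of the 22. Over all genes tested, 0.933% were higher and 0.886% lower. Cdh6 was at 802 and 627 CPM, against 188 and 299, 67.8 and 84.5 and 94 to 379 CPM in Sstr2/Grem1 cells, Slc6a3-high cells and on the VGAT plates, and was higher in all 3 comparisons.

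Of 13 tested peptide and monoamine receptors, Htr2c was higher and Npy1r lower than in Sstr2/Grem1 cells, and DESeq2 called 1 of the 13. Over all genes tested, 0.933% were higher and 0.886% lower. Htr2c was at 141 and 293 CPM against 9.84 and 148 CPM (1.83 ± 0.33, adjusted p = 0.00224) and 48.3 to 111 CPM on the VGAT plates (1.41 ± 0.30). The gap to Sstr2/Grem1 cells was wider at E16 than at P0, with log2 ratios of 3.71 and 0.98. Of 10 tested neuropeptides and granins, Sst (2.03 ± 0.28) and Scg2 (0.55 ± 0.13) were higher and 0 lower, against the same shares over all genes, and DESeq2 called 1 of the 10. Scg2, a granin of dense-core vesicles, was at 1075 and 1459.6 CPM against 692 and 1069 CPM.

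The potassium channel subunit Kcnip4, which binds Kv4 channels, was higher in all 3 comparisons. It was at 2748 and 4196 CPM, against 1079 and 1675 CPM in Sstr2/Grem1 cells (1.34 ± 0.13, adjusted p = 2.64e-06), 1095 and 2100.0 CPM in Slc6a3-high cells (1.16 ± 0.13) and 788 to 1181 CPM on the VGAT plates (1.90 ± 0.17). Kcnd3, a Kv4 pore subunit, was higher than in Sstr2/Grem1 cells (0.77 ± 0.16) and lower than in Slc6a3-high cells (-0.97 ± 0.15). Of 26 tested channel genes, these 2 were higher and 0 lower than in Sstr2/Grem1 cells, where 0.933% of all genes tested were higher and 0.886% lower, and DESeq2 called 1 of the 26. Among 23 glutamate receptor subunits, Grik2 was higher (0.93 ± 0.15) and Gria1 (-1.14 ± 0.17), Gria4 (-0.58 ± 0.15) and Grik1 (-0.85 ± 0.17) were lower than in Sstr2/Grem1 cells, and DESeq2 called 2 of the 23. Against Slc6a3-high cells 9 of the 23 were higher and 3 lower, where 4.58% of all genes tested were higher and 4.58% lower, and DESeq2 called 8. Grm8, a metabotropic receptor, was among the higher ones (3.45 ± 0.21). Of 12 genes of immature neurons and axon growth, edgeR called 0 and DESeq2 0 against Sstr2/Grem1 cells, with 2 at an unadjusted p under 0.05.

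Between the stages there was 1 plate each and no test. Among 5904 genes with at least 50 counts in Met/Itga11 cells, 113 were at least 2-fold higher at P0 (1.91%) and 201 at least 2-fold lower (3.40%), with a median log2 ratio of -0.09. Vgf, a neuropeptide precursor, had 13 counts at E16 and 42 at P0, or 13.1 and 94.8 CPM, a log2 ratio of 2.71 with a counting interval of 3.89 to 15 for the fold. It was also higher at P0 in the other classes and in the means of the VGAT plates, by log2 ratios of 1.56, 1.23 and 1.64. Dab1, the adaptor of reelin signalling, had 128 and 198 counts, a log2 ratio of 1.76 (2.82 to 4.45 as fold), against 0.50 in Sstr2/Grem1 and 0.12 in Slc6a3-high cells. Fstl5 had 46 and 93 counts, a log2 ratio of 2.12, with 2.06 in Sstr2/Grem1 cells and 0.06 in Slc6a3-high cells. Chchd10, Hdac9, Trank1, Gprin3, Fam167a, Mrpl33 and Cbln2 had log2 ratios of 1.70 to 2.07.

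Lmnb1, which encodes a protein of the nuclear lamina, had 50 counts at E16 and 3 at P0, a log2 ratio of -2.69 (2.36 to 36.6 as fold). Its log2 ratio was -1.81 in Sstr2/Grem1 cells, -0.03 in Slc6a3-high cells and -0.64 in the VGAT means. Chrm3, a muscarinic receptor, had 472 and 56 counts, a log2 ratio of -1.92, against -0.62 in Sstr2/Grem1 cells, -1.04 in Slc6a3-high cells and 0.04 in the VGAT means. Kcnh4, Epha4, Snx17, Smad2, Pard6g, Inpp4b and Wbp1 had log2 ratios of -1.79 to -2.08. Fabp7 had a log2 ratio of -1.75, but 75.7% of its counts were in 1 well. The difference between classes in the stage ratio was not tested, and the genes were picked for their ratio in Met/Itga11 cells. For the 4 genes of the rule that are high in Met/Itga11 cells the log2 ratio was -0.32 for Slc26a7, -0.16 for Prdm8, 0.54 for Met and 0.63 for Itga11.

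**Figure D5:**
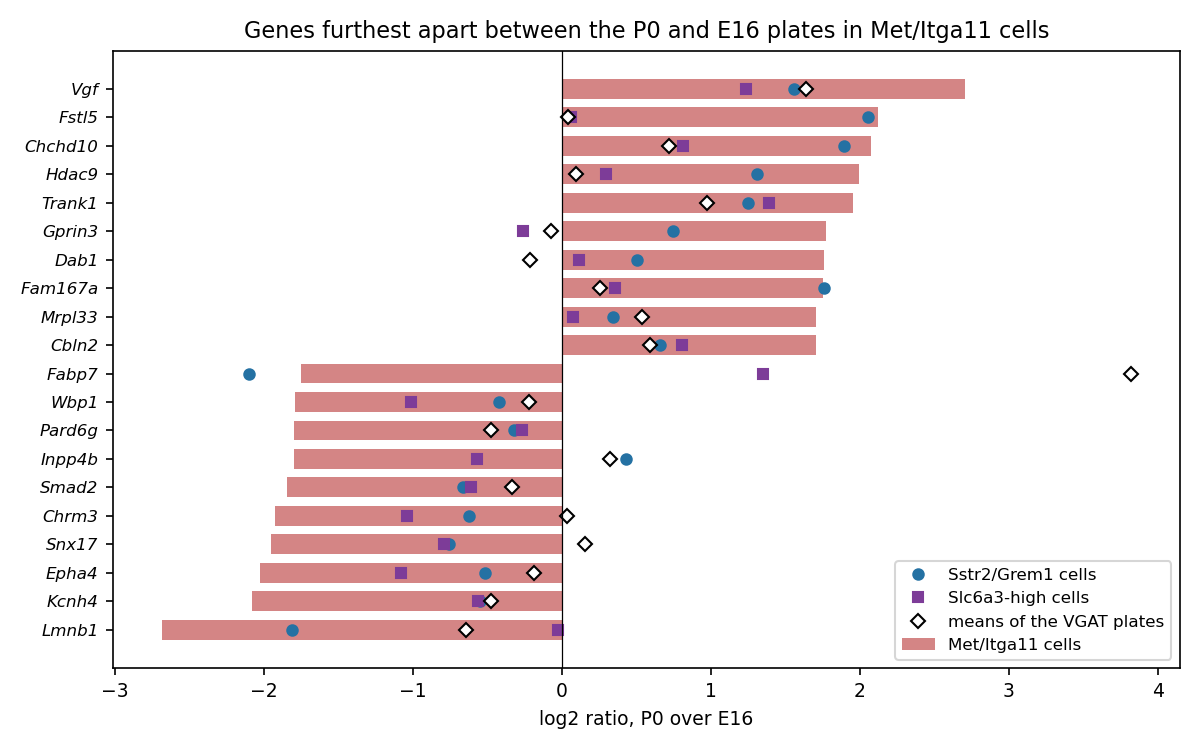
Log2 ratio of the P0 to the E16 plate for the 20 genes furthest apart in Met/Itga11 cells (bars), with the same ratio in Sstr2/Grem1 cells, Slc6a3-high cells and the means of the VGAT plates (points). Each class has 1 plate per stage, so there is no error bar; the genes were picked for their ratio in Met/Itga11 cells, which by itself makes ratios there larger than in the other groups. The ratio of Fabp7 was below 0 in Met/Itga11 cells and above 0 in Slc6a3-high cells and on the VGAT plates.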

How the data were processed

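Single cells were sorted into 384-well plates and sequenced with SORT-seq, a form of CEL-seq2. The authors aligned reads to mouse genome GRCm38 with STAR and counted distinct molecular barcodes per gene and well, exons and introns together. The deposited values are expected counts, corrected for molecules that share a barcode, and 51.7% of the non-zero values were not whole. They were rounded per well for the rule and after summing for tests. Of 32787 entries per well, 92 spike-ins and 34 mitochondrial entries were left out of sums.

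The members, gene lists and tests were chosen with earlier results of these data known. Tests used counts summed over the cells of a class on a plate. The tool was edgeR 4.0.16 (R 4.3.3), with its default filter on low counts, TMM factors and quasi-likelihood test, and p-values were adjusted by Benjamini-Hochberg over all genes tested at a threshold of 0.05. The 2 comparisons within the VGAT + PITX3 plates came from 1 fit of 6 sums with the plate as a block, the one against the VGAT plates from 9 sums with the stage as covariate. The 8 rule genes, Slc6a3, Nrn1 and Slc17a6 were left out of the tests. Named genes were the 10 furthest up and the 10 furthest down by log2 fold change among called genes, with 1 direction on both plates (or no overlap with the VGAT plates) and at least 20 CPM in the higher group, without predicted genes, and for the stages the 10 furthest apart past 2-fold. Any gene of 33 fixed lists could also be named, and 391 of 392 listed genes were found. CPM for the stage ratios used a prior of 1 count. The tests were tested on simulated data. Alternatives were DESeq2 1.42.0, other scaling and filters, spliced counts, other forms of the rule, thinning, leaving plates out in turn, and blocking on the number of the replicate. Wells with at least 30 counts of Fabp7 or Nrgn were left out, and the stage term dropped, as settings chosen after seeing the data. Genes were placed by their identifiers in a GRCm38 annotation. The authors' clusters were not used here. Some genes of the lists are not reported here.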

Additional observations from a re-analysis of the deposited data

Results flagged for a closer look

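Each group of 4 VGAT plates at E16 was looked at for a plate far from the others over 21 values of genes named in the report, and chance flags about 1 in 20 such groups. Both flags concerned VGAT E16 replicate 1. Lmx1a, a dopamine lineage factor, was at 3.50 CPM on this plate and at 0.387 to 0.807 CPM on the other 3. Gata2, a factor of midbrain GABA neurons, was at 144 CPM and at 70.5 to 80.4 CPM on the other 3. Lmx1a was above these values in Met/Itga11 cells (311 and 178 CPM at E16 and P0), and Gata2 had 0 counts there.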

How the results depend on the processing

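The 125 Met/Itga11 cells became 90 with 0 Slc6a3 counts as the limit, 92 without Prdm8 in the rule and 165 without Crhbp. With the rule on cells thinned to 4000 counts there were 122, of which 93 were shared. Against Sstr2/Grem1 cells, 191 genes became 74 with DESeq2, 116 with spliced counts, 123 with at least 2 counts between the sums, 97 with cells thinned to 4000 counts and 0 without the plate as a block (452 at an unadjusted p under 0.05). Against Slc6a3-high cells, 962 became 421 with DESeq2, 475 with thinned cells and 314 without the plate as a block. Against the VGAT plates, 1081 became 405 without the VGAT + PITX3 E16 plate and 679 without the P0 plate, within a range of 405 to 1170 when each of the 9 plates was left out. With the replicate number as a block it was 741, of which 675 were shared. Plates with the same number did not deviate together (correlations of -0.01, 0.08 and 0.02 for numbers 1 to 3), so the numbers do not pair the plates, and only number 2 correlated best with its own. Genes at least 2-fold apart between stages went from 314 to 118 with at least 100 counts. Of the results on single genes and shares, 816 kept direction and side of the threshold, 43 lost the threshold and 6 shares moved. Nrgn reversed, to -0.12 without wells over 2 times their plate's median count and to -0.064 without wells with at least 30 counts of Fabp7 or Nrgn. Within the VGAT + PITX3 plates, leaving out a plate left no residual degrees of freedom, and all 20 named genes of each comparison had the same direction on the remaining plate, as the naming rule required. Causes were not tested. The P0 sum of 437656 counts limits low genes, and 2 residual degrees of freedom limit the comparisons within plates.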
